A study of Mus musculus with 28 samples.

Results

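The 40 genes described here encode the machinery that copies DNA, together with the enzymes that supply deoxynucleotides and the chromatin assembly factor that follows the fork. They were chosen by name, with earlier results of these data known. All 40 were found among the 43430 gene IDs of the count tables, and all 40 passed the filter on low counts in every comparison. RNA was measured by sequencing in 28 libraries of regulatory T (Treg) cells, taken as CD4+ YFP-Foxp3+ CD25+ cells from mice of strain C57BL/6NJ. RISP, the Rieske iron-sulfur protein encoded by Uqcrfs1, is a catalytic subunit of complex III of the mitochondrial respiratory chain. The groups were RISP_WT and RISP_KO (RISP wild-type and RISP knockout cells of 3-week-old mice, n = 4 each), and RISP_Chimera_WT and RISP_Chimera_KO (the same genotypes in chimeras aged 8 to 12 weeks, n = 4 each). The in vitro groups held RISP wild-type cells taken at 3 weeks of age, n = 3 each. They were Untreated, AntimycinA (1 µM, a blocker of complex III), Piericidin (1 µM, of complex I) and 3-NPA (500 µM, a blocker of complex II). The promoter that drives the deletion, the cells that chimera hosts keep and the time in culture are not given in the sources used here. Whether each replicate came from its own mouse is not given either, and the p-values then reflect only how far these libraries differ, possibly for technical reasons.

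Before S phase the origin recognition complex, CDC6 and CDT1 load the ring-shaped MCM2-7 helicase onto origins, and the ring is switched on when CDC45 and the GINS complex join it. DNA polymerase alpha with primase then starts each strand, polymerases epsilon and delta extend it on the sliding clamp PCNA, and nicks between lagging-strand fragments are sealed by DNA ligase 1. In proliferating T cells most of these genes are transcribed in a wave at the G1/S boundary under E2F transcription factors, so their summed RNA is commonly read as a sign of cycling cells.

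RefSeq promoters (build GRCm38.p6, 250 bases before to 50 after the start) were available for 33 of the 40 genes, as 37 promoters. The E2F site was searched as TTT, then 2 letters that are each C or G, then CGC, on both strands, and matches may overlap. It was present in 14 of the 37 promoters (37.8%), against 2.26% of all 32851 mouse promoters of the table. The CCAAT box was present in 59.5% of them against 37.4% of all promoters, and the mitotic CHR element TTTGAA in 10.8% against 17.9%. A match of letters is a description and does not show that a factor binds. Gins3 and Pole2 have an E2F site but did not fall with antimycin A at an adjusted p under 0.05. Rrm2 and Mcm10 did fall, and no E2F site was found in their promoters. Whether the site goes with the size of a fall was not tested. The promoters of Lig1 (chr7:13278576-13278875, plus strand), Mcm5 (chr8:75109259-75109558, plus strand), Mcm7 (chr5:138171834-138172133, minus strand) and Cdc6 (chr11:98907901-98908200, plus strand) are shown 5′ to 3′, because they have the smallest p with antimycin A among genes with an E2F site. Capitals mark the E2F sites, which in Mcm5 form an overlapping pair.
Lig1: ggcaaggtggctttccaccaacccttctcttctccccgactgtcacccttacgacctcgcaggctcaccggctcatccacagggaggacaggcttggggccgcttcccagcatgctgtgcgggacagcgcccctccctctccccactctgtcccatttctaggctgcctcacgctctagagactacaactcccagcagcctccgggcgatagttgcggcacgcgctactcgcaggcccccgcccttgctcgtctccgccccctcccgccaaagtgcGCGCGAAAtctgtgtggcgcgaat
Mcm5: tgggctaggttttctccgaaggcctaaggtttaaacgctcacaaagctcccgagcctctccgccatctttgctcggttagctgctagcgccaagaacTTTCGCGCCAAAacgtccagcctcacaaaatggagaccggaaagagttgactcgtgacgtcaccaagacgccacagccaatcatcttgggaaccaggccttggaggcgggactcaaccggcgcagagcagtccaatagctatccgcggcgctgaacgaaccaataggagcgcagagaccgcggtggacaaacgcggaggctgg
Mcm7: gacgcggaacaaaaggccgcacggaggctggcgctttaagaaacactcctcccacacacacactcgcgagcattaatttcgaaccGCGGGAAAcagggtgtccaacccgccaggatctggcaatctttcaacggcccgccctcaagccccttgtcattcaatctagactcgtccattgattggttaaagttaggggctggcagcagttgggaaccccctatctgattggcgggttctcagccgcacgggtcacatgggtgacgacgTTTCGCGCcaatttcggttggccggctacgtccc
Cdc6: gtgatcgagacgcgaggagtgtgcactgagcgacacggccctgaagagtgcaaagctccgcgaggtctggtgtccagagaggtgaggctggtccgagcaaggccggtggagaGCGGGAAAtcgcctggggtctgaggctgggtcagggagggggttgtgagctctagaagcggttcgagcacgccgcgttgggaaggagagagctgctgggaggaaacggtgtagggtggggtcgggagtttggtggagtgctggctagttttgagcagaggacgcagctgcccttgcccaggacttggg

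Depth was 28446051 to 50769961 counts a library for the mice aged 3 weeks, 20437386 to 31019835 for the chimeras and 2707199 to 3445930 in vitro. Levels below are CPM, a gene's share of all counts of its library, listed by replicate number. Log2 fold changes are given ± SE, and a gene is called at an adjusted p under 0.05 (edgeR quasi-likelihood test, Benjamini-Hochberg over all genes tested). Uqcrfs1 stood at 189, 154, 184 and 175 CPM in RISP_WT and at 7.45, 5.62, 5.14 and 6.30 CPM in RISP_KO. It stood at 82.6, 85.9, 82.0 and 73.5 CPM in RISP_Chimera_WT and at 4.84, 11.3, 4.83 and 6.19 CPM in RISP_Chimera_KO, so each library went with its label. The 8 T and Treg cell markers, Foxp3 and Il2ra among them, were detected in every library and summed to 3818 to 7253 CPM over the 28. In bulk RNA, fewer cells that replicate DNA and less RNA per replicating cell cannot be told apart. Reads of overlapping genes may be shared, since the strand setting of the counting is not given in the sources used here. In GENCODE M21, Fen1, Gins2 and Chaf1a share 78.8%, 67.3% and 52.5% of their exon bases with a gene on the opposite strand, and their values are uncertain for that reason. In all, 12 of the 40 genes share over 5% of their exon bases with other genes. Among them are Rfc2 (15.1%), Rfc4 (12.7%), Orc1 (10.8%), Rfc5 (10.7%), Pole2 (8.50%), Orc6 (6.93%), Cdc45 (5.96%) and Lig1 (5.79%). Mcm7 shares 7.25% with Ap4m1 and smaller parts with other genes. The values of these genes may be affected to a smaller degree. The gene that overlaps Pole2 lies on the same strand. Reads assigned to the processed copy Pcna-ps2 came to at most 1.81% of those of Pcna in any table.

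In RISP_KO cells of 3-week-old mice, 10 of the 40 genes rose (25%) and 0 fell, where 4.78% of all genes tested rose and 5.08% fell (9.86% called either way). The rises were small, from 0.31 for Rrm1 to 0.72 for Pole on the log2 scale. The median of the 40 log2 fold changes was 0.35, where that of all genes tested was 0.00, and 39 of 40 were positive. Their summed level was 3633, 4079.8, 3735 and 4104 CPM in RISP_WT and 5568, 4375, 4162 and 4733 CPM in RISP_KO. Every knockout library lay above every wild-type library, and replicate 1 of RISP_KO was the highest of the 8.

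Pole (chr5:110286306-110337474, mm10), the catalytic subunit of the leading-strand polymerase epsilon, rose most. It read 37.3, 35.7, 32.1 and 34.5 CPM in RISP_WT and 62.1, 52.5, 52.7 and 61.4 CPM in RISP_KO (0.72 ± 0.10, adjusted p = 0.0013). Mcm2 (chr6:88883475-88898780), a subunit of the helicase ring, read 207, 244, 198 and 264 CPM in RISP_WT and 349.5, 315, 304 and 339 CPM in RISP_KO (0.53 ± 0.10, adjusted p = 0.00656). For both genes the 4 knockout libraries lay above the 4 wild-type libraries without overlap. Pold1, the catalytic subunit of the lagging-strand polymerase delta, read 92.2, 112, 95.6 and 107 CPM in RISP_WT and 194, 131, 136 and 151 CPM in RISP_KO (0.60 ± 0.12, adjusted p = 0.00959). Mcm3, which sits beside Mcm5 in the helicase ring, read 219.7, 271, 234 and 275 CPM in RISP_WT and 379, 324, 299 and 332 CPM in RISP_KO (0.43 ± 0.09, adjusted p = 0.0158). These groups did not overlap either.

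By role, 1 of 4 origin licensing genes rose, the loader Cdt1 (0.47 ± 0.10), while Orc1, an ATPase of the origin recognition complex, was at 0.69 ± 0.24, adjusted p = 0.103 and Cdc6 at 0.28 ± 0.18. Of 8 MCM genes, Mcm2, Mcm3 and Mcm4 rose, Mcm4 by 0.39 ± 0.10, and the other ring subunits Mcm5, Mcm6 and Mcm7 were not called (0.31, 0.13 and 0.25). The helicase cofactor Cdc45 rose (0.55 ± 0.14), and 0 of the 4 GINS genes were called. Among 7 polymerase and primase genes, Pole, Pold1 and Prim1, the catalytic primase subunit (0.55 ± 0.14), rose. None of the 6 clamp and clamp loader genes was called, with Rfc4 highest at 0.67 ± 0.23, adjusted p = 0.09. Chaf1a, the large subunit of the histone chaperone CAF-1, rose (0.57 ± 0.15).

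Pcna and Rrm2, often used as S phase reporters, were not called. Pcna (chr2:132249162-132253314), the sliding clamp, read 150.5, 151, 155 and 172 CPM in RISP_WT and 198, 157, 157 and 172 CPM in RISP_KO, with overlapping groups (0.13 ± 0.09, adjusted p = 0.384). Rrm2 (chr12:24708241-24714146), the small subunit of ribonucleotide reductase whose level limits deoxynucleotide synthesis in S phase, read 235, 206, 252 and 215 CPM in RISP_WT and 292, 212, 207 and 229 CPM in RISP_KO (0.06 ± 0.11, adjusted p = 0.803), also overlapping. The large subunit gene Rrm1 rose (0.31 ± 0.07), and Rpa1, the large subunit of the single-strand binding protein, was the only gene below 0 (-0.17 ± 0.09). Whether Mcm2 changed more than Pcna or Rrm2 was not tested.

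The count of 10 was 4 without replicate 1, 2 or 3 of RISP_WT and was 4 to 10 over all 8 such fits. Pole, Mcm2 and Pold1 were called in each of the 8. Some markers of other cells were lower in the knockout. Of 7 tested macrophage and monocyte markers 3 (Adgre1, Csf1r and C1qb) and of 7 tested B cell markers 2 (Cd79b and Fcmr) were called lower and none higher. Of all genes tested, 5.08% were called lower. The marker lists of plasma, dendritic, and CD8 and NK cells are not reported here. The 8 macrophage and monocyte markers summed to 8.15 to 38.4 CPM in RISP_WT and 4.18 to 9.08 CPM in RISP_KO, the 8 B cell markers to 48.0 to 64.5 and 25.2 to 36.4 CPM. Erythroid markers stood at 104 CPM in replicate 2 of RISP_WT and at 256 CPM in replicate 3 of RISP_KO. Their part in the result was not tested.

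**Figure D1:**
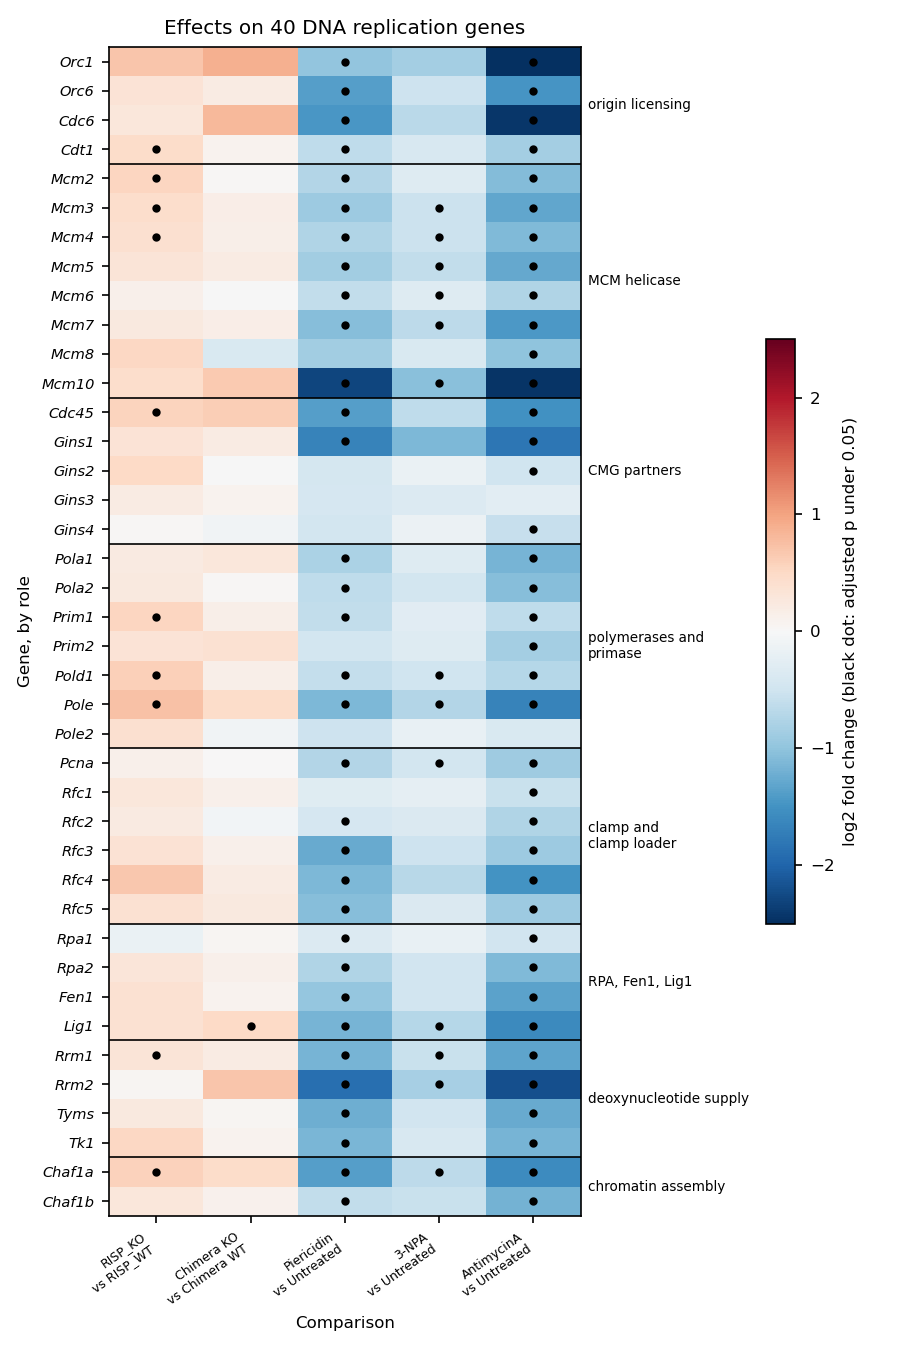
Log2 fold change of the 40 genes, grouped by role, in the 5 comparisons with a control. Colour gives the log2 fold change and a black dot an adjusted p under 0.05: 10 dots in RISP_KO and 1 in the chimeras are rises, and the 33, 13 and 38 dots with piericidin, 3-NPA and antimycin A are falls.

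In the chimeras only Lig1 (chr7:13277283-13311433), which encodes the ligase that joins lagging-strand fragments, rose, and 0 of 40 genes fell (1 of 40 called, where 0.167% of all genes tested rose and 0.542% fell, 0.708% either way). Lig1 read 26.6, 28.3, 24.9 and 27.6 CPM in RISP_Chimera_WT and 33.8, 44.4, 35.9 and 40.5 CPM in RISP_Chimera_KO (0.51 ± 0.10, adjusted p = 0.0421). All 4 knockout libraries lay above the 4 controls. The call was lost in each of the 8 fits that left out 1 library, with an adjusted p of up to 0.109, and the count was then 0. The median of the 40 log2 fold changes was 0.15, where that of all genes tested was 0.00, and 34 were positive. The largest estimates were those of Orc1 (0.88 ± 0.45, adjusted p = 0.435), the helicase loader Cdc6 (0.81 ± 0.26, adjusted p = 0.215) and Rrm2 (0.69 ± 0.22, adjusted p = 0.212), none of them called.

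The summed level of the 40 genes was 1311, 1359, 1294 and 1253 CPM in RISP_Chimera_WT and 1362, 1585, 1362 and 1410.0 CPM in RISP_Chimera_KO. The groups did not overlap, although 2 knockout libraries lay only just above the highest control, and replicate 2 of RISP_Chimera_KO was the highest. None of the tested macrophage, B cell or erythroid markers was called in the chimeras. Macrophage and monocyte markers read 25.9, 67.3, 25.6 and 81.0 CPM in the knockout libraries and 21.1 to 53.6 CPM in the controls. Replicates 2 and 4 of RISP_Chimera_KO have the highest macrophage markers. Without both, the count of called genes was 0, the median was 0.08 and 28 of 40 estimates were positive. Without replicate 2 alone the median was 0.10 and 27 were positive. Without replicate 4 alone, which has the highest macrophage markers, the median was 0.17 and 35 were positive. The part of macrophage RNA in the result was not tested.

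Mcm2 read 68.1, 73.7, 75.3 and 75.2 CPM in RISP_Chimera_WT and 79.8, 76.5, 67.7 and 79.6 CPM in RISP_Chimera_KO, with overlapping groups (0.04 ± 0.08, adjusted p = 0.89). Pcna read 115, 123, 143 and 94.4 CPM and 122, 167, 96.0 and 101 CPM in the same order (0.01 ± 0.17, adjusted p = 0.995). Rrm2 read 10.9, 11.4, 8.48 and 6.70 CPM and 10.4, 21.1, 15.8 and 14.2 CPM, where replicate 1 of the knockout lay within the controls and its other 3 libraries above them.

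The difference between the knockout effects was tested in 1 fit of the 16 libraries. It called 1 of 40 genes, where 3.27% of all genes tested were called (1.23% higher in the chimeras and 2.04% lower): Mcm2, whose effect was lower in the chimeras than in 3-week-old mice (-0.51 ± 0.13, adjusted p = 0.0371). That call was lost without any of 11 of the 16 libraries and in the fit without replicates 2 and 4 of RISP_Chimera_KO. Without replicate 2 of RISP_KO, 2 genes were called. The other 39 differences ranged from -0.90 ± 0.40 for Mcm8, a helicase of recombination repair, to 0.61 ± 0.26 for Rrm2, with -0.17 as the median of all 40. Age, library kit and the chimeric host differ between these tables together with the setting and cannot be told apart.

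**Figure D2:**
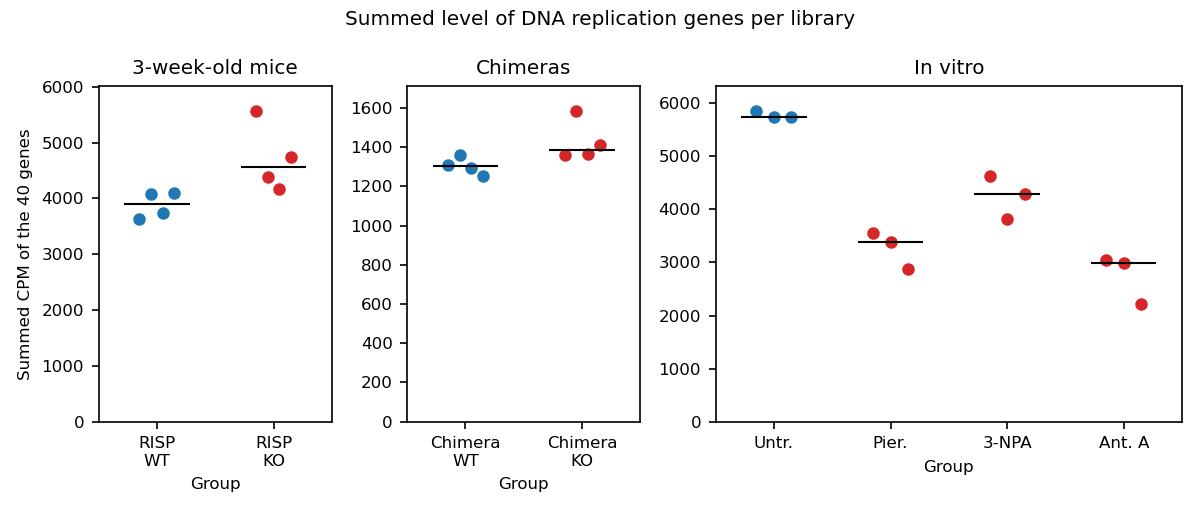
Summed CPM of the 40 genes in each library (points, by replicate number from left to right) and the group median (line), in a panel for each table. Control groups are blue, and in every panel all knockout or inhibitor libraries lie on 1 side of the controls.

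In vitro, replication genes fell with each inhibitor of the respiratory chain and 0 rose. With AntimycinA 38 of the 40 fell (all but Gins3 and Pole2), with Piericidin 33 and with 3-NPA 13. Of all genes tested, 8.50%, 7.93% and 1.87% were called lower in that order, and 6.50%, 5.62% and 1.35% higher (15.0%, 13.6% and 3.23% in either direction). All 40 estimates were negative with each inhibitor, with medians of -1.13 for AntimycinA, -0.87 for Piericidin and -0.48 for 3-NPA. The median of all genes tested lay between -0.01 and 0.02. The summed level of the 40 genes was 5857, 5735 and 5737 CPM in Untreated cells, 4629, 3810.2 and 4289.7 CPM with 3-NPA, 3563, 3393 and 2881 CPM with Piericidin and 3051, 2992 and 2222 CPM with AntimycinA. Each treated library lay below each untreated library. The 3 comparisons share the Untreated libraries, so their values are given side by side and are not independent of each other. Summed T and Treg cell markers were 6593 to 6729 CPM in Untreated cells and 6371 to 6679, 7157 to 7253 and 6617 to 6924 CPM with AntimycinA, Piericidin and 3-NPA. Macrophage and monocyte markers were 15.1 to 23.7 CPM over all 12 libraries.

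With AntimycinA the smallest p was that of Lig1, which read 271, 252 and 253 CPM in Untreated cells and 88.6, 96.1 and 77.7 CPM with the inhibitor (-1.59 ± 0.12, adjusted p = 8.33e-13). Rrm2 read 186, 206 and 191 and 59.4, 49.5 and 20.2 CPM (-2.19 ± 0.19, adjusted p = 2.64e-11), with replicate 3 of AntimycinA the lowest. The helicase subunit gene Mcm5 read 348, 357 and 358 and 152, 170.2 and 125 CPM (-1.27 ± 0.11, adjusted p = 1.34e-10). These 3 genes fell without overlap of the groups. Mcm10, needed to switch the loaded helicase on, read 63.2, 88.5 and 54.7 and 12.6, 14.9 and 10.3 CPM (-2.46 ± 0.23, adjusted p = 2.82e-10). Mcm2 read 321, 366 and 323 and 179, 179.8 and 125 CPM (-1.08 ± 0.11, adjusted p = 3.29e-09). Pcna read 345, 314 and 333 and 217, 190.1 and 142 CPM (-0.88 ± 0.11, adjusted p = 2.21e-07). Here too the groups did not overlap. Over the 12 fits that each left out 1 library, 34 to 38 genes were called, and 32 of the 38 were called in all 12.

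Of the 33 genes that fell with Piericidin, Rrm2, Mcm10, Lig1 and Rrm1 had the smallest p. Rrm2 read 53.4, 63.9 and 42.7 CPM with Piericidin (-1.89 ± 0.18, adjusted p = 5.78e-09), Mcm10 14.9, 14.2 and 13.5 CPM (-2.30 ± 0.23, adjusted p = 8.38e-09) and Lig1 124, 131 and 99.8 CPM (-1.16 ± 0.12, adjusted p = 1.02e-08). Rrm1 read 328, 315 and 287 CPM in Untreated cells and 161, 147 and 117 CPM with Piericidin (-1.16 ± 0.14, adjusted p = 1.57e-07). Each of these 4 groups lay wholly below the untreated libraries. Mcm2 read 219, 199 and 196 CPM (-0.74 ± 0.11, adjusted p = 9.53e-06) and Pcna 230.0, 202 and 177 CPM (-0.73 ± 0.11, adjusted p = 1.18e-05), also without overlap. The 7 genes not called were Mcm8, Gins2, Gins3, Gins4, Prim2, Pole2 and Rfc1, and their log2 fold changes ran from -0.87 to -0.31. Leaving out 1 library gave 26 to 34 calls, with 25 of the 33 called in all 12 fits.

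With 3-NPA the 13 falls ran from -0.33 for Mcm6 to -1.04 for Mcm10. Lig1 read 171, 140.4 and 178 CPM with 3-NPA (-0.70 ± 0.11, adjusted p = 0.000172), Mcm5 251, 216 and 245 CPM (-0.62 ± 0.11, adjusted p = 0.000967) and Mcm10 39.4, 30.7 and 33.4 CPM (-1.04 ± 0.21, adjusted p = 0.00271). Mcm7, another subunit of the helicase ring, read 293, 322 and 294 CPM in Untreated cells and 241, 157 and 194 CPM with 3-NPA (-0.66 ± 0.13, adjusted p = 0.0027). All 4 fell without overlap. Rrm2 read 108, 113 and 114 CPM (-0.84 ± 0.17, adjusted p = 0.00309), Pcna 237, 247 and 258 CPM (-0.46 ± 0.11, adjusted p = 0.0125), and Mcm2 311, 232 and 281 CPM, wholly below the untreated libraries but not called (-0.33 ± 0.11, adjusted p = 0.0886). The count of 13 became 5 without replicate 2 of 3-NPA and 6 without its replicate 3 or without replicate 1 or 3 of Untreated. Lig1, Mcm5, Mcm7 and Rrm2 were called in all 12 such fits.

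**Figure D3:**
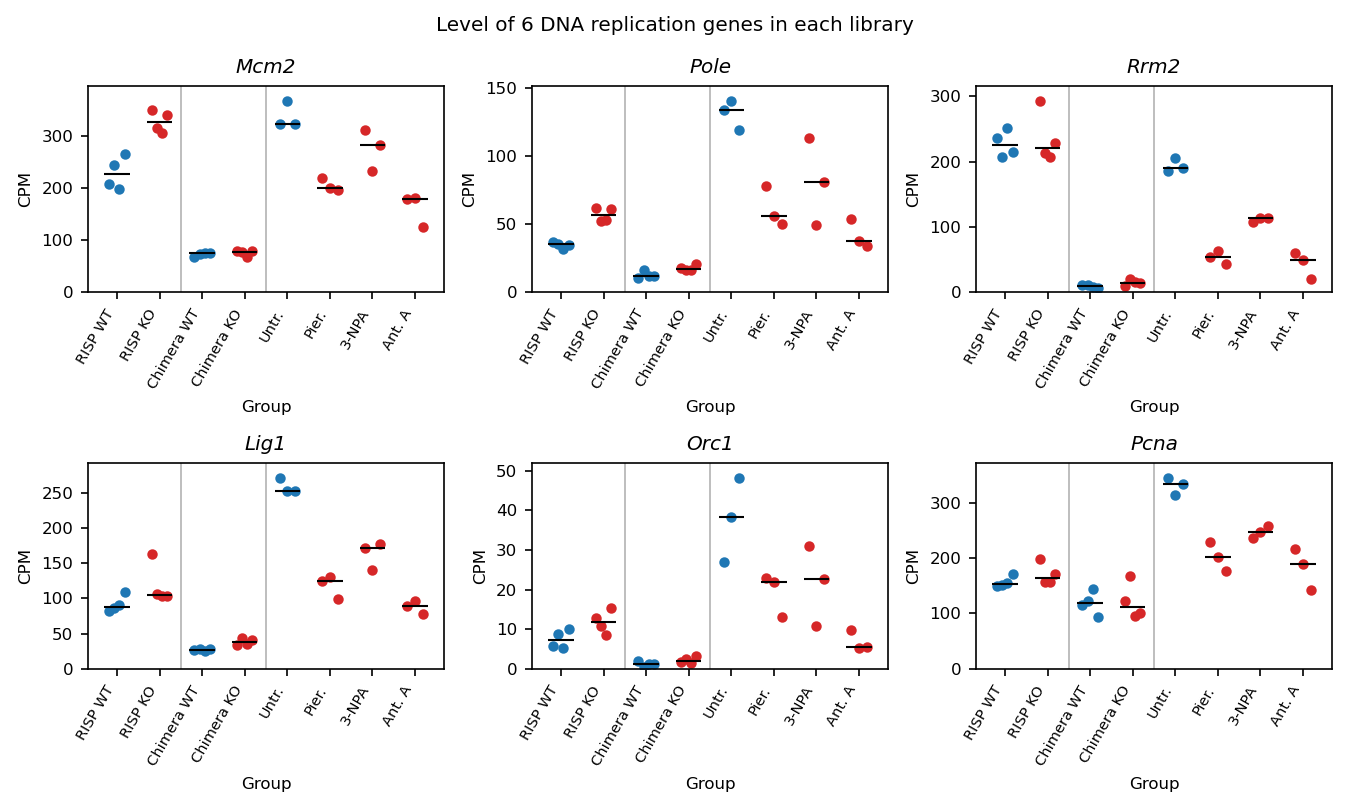
CPM of Mcm2, Pole, Rrm2, Lig1, Orc1 and Pcna in each library (points, by replicate number from left to right) with the group median (line), controls in blue. The grey lines part the 3 tables, which differ in kit, age or culture. Mcm2 and Pole are higher in RISP_KO than in RISP_WT, Rrm2 and Pcna overlap there, and all 6 genes lie lower with AntimycinA than in Untreated cells.

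All 4 origin licensing genes fell with AntimycinA and Piericidin. Orc1 (chr4:108579423-108614833) read 26.9, 38.3 and 48.3 CPM in Untreated cells, 9.73, 5.27 and 5.52 CPM with AntimycinA (-2.49 ± 0.34, adjusted p = 8.26e-07) and 22.9, 21.9 and 13.2 CPM with Piericidin (-0.99 ± 0.30, adjusted p = 0.0236). With 3-NPA, Orc1 read 31.1, 10.7 and 22.6 CPM and overlapped the untreated libraries (-0.85 ± 0.30, adjusted p = 0.119). The log2 fold change of Cdc6 was -2.43 ± 0.25 with AntimycinA and -1.45 ± 0.23 with Piericidin. That of Orc6, another subunit of the origin recognition complex, was -1.47 ± 0.23 and -1.38 ± 0.23, and that of Cdt1 -0.85 ± 0.18 and -0.63 ± 0.18. None of the 4 was called with 3-NPA.

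All 6 subunits of the helicase ring fell with AntimycinA, from -0.76 for Mcm6 to -1.43 for Mcm7, and with Piericidin, from -0.62 for Mcm6 to -1.06 for Mcm7. With 3-NPA 5 of the 6 fell, all but Mcm2. Of the ring's partners, Cdc45 (-1.51 ± 0.21) and Gins1 (-1.82 ± 0.38) fell with AntimycinA, as did Gins2 (-0.50 ± 0.17) and Gins4 (-0.57 ± 0.19), and Gins3 was not called (-0.27 ± 0.30). Gins1 was at low counts, with 18.3, 26.9 and 31.0 CPM in Untreated cells, and the differences among the 4 GINS genes were not tested.

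The catalytic polymerase genes Pole (-1.67 ± 0.20), Pola1 (-1.15 ± 0.21) and Pold1 (-0.72 ± 0.13) fell with AntimycinA and with Piericidin (-1.12 ± 0.19, -0.79 ± 0.21 and -0.59 ± 0.13). With 3-NPA, Pole (-0.73 ± 0.19) and Pold1 (-0.49 ± 0.12) fell. Pole2, the second subunit of polymerase epsilon, was not called with any inhibitor (-0.39 ± 0.25 with AntimycinA). The clamp loader genes Rfc1 to Rfc5 all fell with AntimycinA, from -0.55 for Rfc1, the large subunit, to -1.50 for Rfc4, and 4 of them with Piericidin. The single-strand binding genes Rpa1 (-0.47 ± 0.10) and Rpa2 (-1.10 ± 0.17) and the flap endonuclease gene Fen1 (-1.33 ± 0.15) fell with AntimycinA. All 4 deoxynucleotide genes fell with AntimycinA and Piericidin: beside Rrm1 and Rrm2 these are Tyms, thymidylate synthase (-1.26 ± 0.20 and -1.22 ± 0.20), and Tk1, cytosolic thymidine kinase (-1.16 ± 0.19 and -1.14 ± 0.19). Chaf1a fell with all 3 inhibitors (-1.58 ± 0.20, -1.39 ± 0.19 and -0.66 ± 0.19 for AntimycinA, Piericidin and 3-NPA), and its partner Chaf1b with the first 2 of these.

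The inhibitors were compared with each other in 3 pairs, at the doses used, 500 µM for 3-NPA and 1 µM for the other two. AntimycinA and Piericidin differed in 1 of the 40 genes, where 0.736% of all genes tested were called (0.436% higher and 0.299% lower with AntimycinA): Orc1 was lower with AntimycinA (-1.50 ± 0.35, adjusted p = 0.0243). Without replicate 1 or 2 of Piericidin or replicate 2 or 3 of AntimycinA that count was 0, and without replicate 3 of Piericidin it was 4. The 40 differences had a median of -0.21 and 36 were negative. A gene that was not called is not shown to respond alike; for Rrm2 the difference was -0.30 ± 0.20 and for Cdc6 -0.98 ± 0.26, adjusted p = 0.0705. AntimycinA was lower than 3-NPA in 24 genes (2.38% of all genes tested were lower and 1.60% higher, 3.98% either way), with the smallest p for Lig1 (-0.88 ± 0.12, adjusted p = 1.88e-05), Rrm2 (-1.35 ± 0.19, adjusted p = 2.15e-05) and Cdc6 (-1.76 ± 0.25, adjusted p = 2.69e-05). That count was 12 without replicate 1 of 3-NPA and 13 without replicate 3 of AntimycinA. Piericidin was lower than 3-NPA in 13 genes (2.43% of all genes tested were lower and 1.87% higher, 4.29% either way), all 4 deoxynucleotide genes among them, led by Rrm2 (-1.05 ± 0.19, adjusted p = 0.000405) and Mcm10 (-1.26 ± 0.23, adjusted p = 0.000782). That count was 4 and 5 without replicates 1 and 3 of 3-NPA, and 8 and 3 without replicates 2 and 3 of Piericidin. Rrm2 and Mcm10 were called in all 12 of those fits. None of the 40 genes was called higher with AntimycinA than with either other inhibitor, or with Piericidin than with 3-NPA.

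Related lists were read in the same fits, and the shares of all genes tested apply to each of them. In RISP_KO 4.78% of all genes tested rose and 5.08% fell, and in the chimeras 0.167% rose and 0.542% fell. With AntimycinA, Piericidin and 3-NPA 8.50%, 7.93% and 1.87% fell, and 6.50%, 5.62% and 1.35% rose. Of 33 other replication genes, 21 fell with AntimycinA, 15 with Piericidin and 5 with 3-NPA, and 0 rose. With AntimycinA the smallest p were those of Wdhd1, a fork protein that couples helicase and polymerase alpha (-1.30 ± 0.17), Clspn, a checkpoint mediator (-1.99 ± 0.27), and Atad5, which unloads PCNA (-1.45 ± 0.20). In RISP_KO 5 rose and 0 fell: Ticrr, needed for origin firing (1.09 ± 0.21), Tipin and Timeless of the fork protection complex (0.62 ± 0.12 and 0.57 ± 0.16), Pold2 (0.55 ± 0.14) and the helicase gene Recql4 (0.93 ± 0.24). That count was 2 without replicate 1 or 3 of RISP_WT and 3 without its replicate 4 or without replicate 2 of RISP_KO, while DESeq2 called 9. The count of 5 with 3-NPA was 0 to 1 without replicate 2 or 3 of 3-NPA or replicate 2 of Untreated, and 3 and 2 without replicates 1 and 3 of Untreated. In the chimeras 0 of the 33 were called by edgeR, 4 had an unadjusted p under 0.05, and DESeq2 called 2. Of 11 other deoxynucleotide genes, 5 fell with AntimycinA, among them Dut, which hydrolyses dUTP (-1.29 ± 0.13), 6 with Piericidin and 1 with 3-NPA. The count of 6 was 3 without replicate 3 of Piericidin or replicate 1 of Untreated. The count of 1 was 0 without replicate 3 of 3-NPA or replicate 1 of Untreated, and 2 in a fit of only the 2 groups. In RISP_KO, Dctd, deoxycytidylate deaminase, rose (0.69 ± 0.19, adjusted p = 0.0471), a call lost with no filter on low counts, without replicate 2 or 4 of RISP_KO and without any 1 library of RISP_WT.

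Of 25 mitosis genes, 24 fell with AntimycinA, 25 with Piericidin and 6 with 3-NPA. Their medians were -2.04, -1.43 and -0.60. Mki67, the proliferation marker Ki-67, had log2 fold changes of -2.04 ± 0.16, -1.37 ± 0.15 and -0.62 ± 0.15 in that order. With 3-NPA the count of 6 was 0 without replicate 2 of 3-NPA or of Untreated, 2 without replicate 3 of 3-NPA and 3 without replicate 1 or 3 of Untreated. It was 10 in a fit of only the 2 groups and 1 with DESeq2. In RISP_KO, Top2a, a topoisomerase of mitotic chromosomes, rose (0.50 ± 0.10, adjusted p = 0.00959), 1 of 25 mitosis genes (4%), where 4.78% of all genes tested rose. The median over the 25 was 0.34. Without replicate 2 or 4 of RISP_KO, 5 and 2 mitosis genes were called, and DESeq2 called 6. In the chimeras the kinetochore motor gene Cenpe rose (1.02 ± 0.20, adjusted p = 0.0393), and the median of the 25 mitosis genes was 1.02. Their summed level was 172, 151, 134 and 132 CPM in RISP_Chimera_WT and 166, 348, 217 and 278 CPM in RISP_Chimera_KO, where replicate 1 lay within the controls. No mitosis gene was called in the chimeras without replicates 2 and 4 of RISP_Chimera_KO, or without replicate 2 or 3 of RISP_Chimera_KO or any 1 library of RISP_Chimera_WT, while 3 were called without replicate 1 of RISP_Chimera_KO. With no filter on low counts 6 were called, and DESeq2 called 12.

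**Figure D4:**
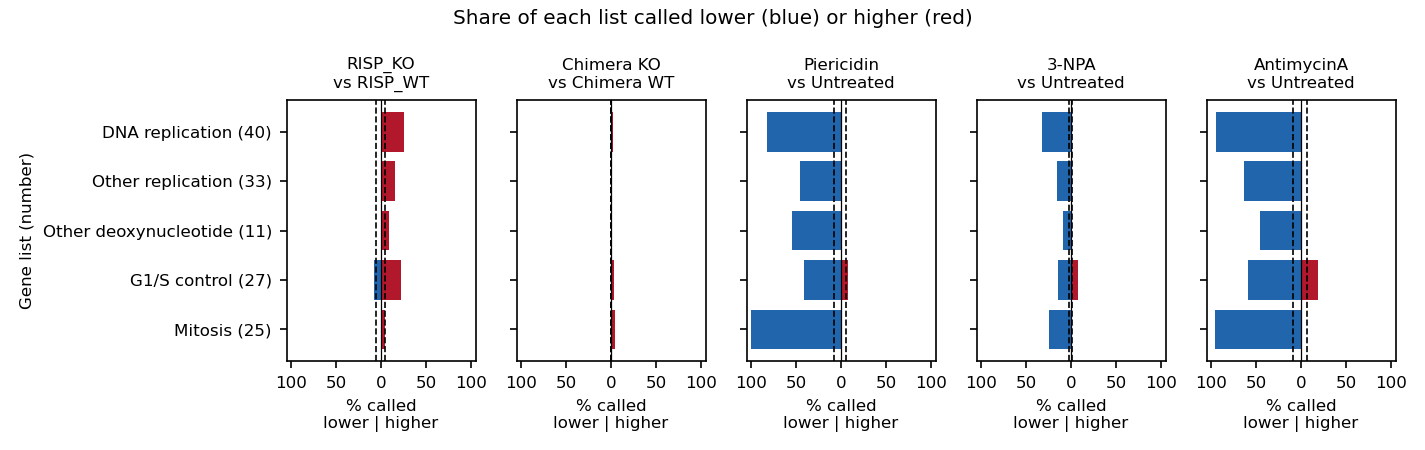
Percentage of each gene list called lower (blue, to the left) or higher (red, to the right) in the 5 comparisons with a control. The dashed lines give the share of all genes tested that was called in each direction. The replication and mitosis lists reach 95% and 96% with AntimycinA, and the replication list 25% in RISP_KO.

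Of 27 genes that control the G1/S transition, 16 fell and 5 rose with AntimycinA, 11 fell and 2 rose with Piericidin, and 4 fell and 2 rose with 3-NPA. Ccna2, cyclin A2, fell with AntimycinA (-1.87 ± 0.21) and Piericidin (-1.97 ± 0.21), as did Ccne1, cyclin E1 (-1.77 ± 0.26 and -2.03 ± 0.27). Cdkn1a, the cyclin-dependent kinase inhibitor p21, rose with AntimycinA (1.63 ± 0.19, adjusted p = 3.66e-08) and 3-NPA (1.60 ± 0.19, adjusted p = 3.81e-07) and fell with Piericidin (-0.73 ± 0.22, adjusted p = 0.0183). The difference between AntimycinA and Piericidin was 2.36 ± 0.20, adjusted p = 4.94e-11. In RISP_KO, 6 of the 27 rose and 2 fell, where 4.78% of all genes tested rose and 5.08% fell. The risers included Cdkn1a (1.97 ± 0.26, adjusted p = 0.0011), Tfdp1, the partner of the E2F factors (0.52 ± 0.10), and Myc (0.62 ± 0.14), and the 2 that fell were E2f2 (-0.43 ± 0.11) and Rbl2, a pocket protein of resting cells (-0.38 ± 0.10). This count of 8 was 2 to 5 without replicate 2 or 3 of RISP_KO or replicate 1, 3 or 4 of RISP_WT. In the chimeras Rb1, the retinoblastoma protein gene, rose (0.44 ± 0.08), a call lost without replicate 3 or 4 of RISP_Chimera_KO or replicate 2, 3 or 4 of RISP_Chimera_WT. The count of 1 was 2 with no filter or with a filter of 1 CPM, and 3 with DESeq2. With 3-NPA the count of 6 was 1 without replicate 3 of 3-NPA or replicate 1 of Untreated, and 2 without replicate 2 of 3-NPA or replicate 3 of Untreated.

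The effects of different tables were also set gene against gene. Across the 40 genes the log2 fold changes in the chimeras and with AntimycinA, which share no library, had a Pearson r of -0.80 and a Spearman rho of -0.75. Orc1, Cdc6, Mcm10 and Rrm2, the 4 genes with the largest falls with AntimycinA, had the 4 largest estimates in the chimeras (0.88, 0.81, 0.66 and 0.69). Against Piericidin the r was -0.62 and against 3-NPA -0.66. Without replicates 2 and 4 of RISP_Chimera_KO, r and rho against AntimycinA were -0.63 and -0.49. The effects in RISP_KO had an r of 0.24 with those in the chimeras and of -0.28 with those of AntimycinA. Genes are not independent replicates, the values of a comparison come from the same libraries, and no p is given.

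**Figure D5:**
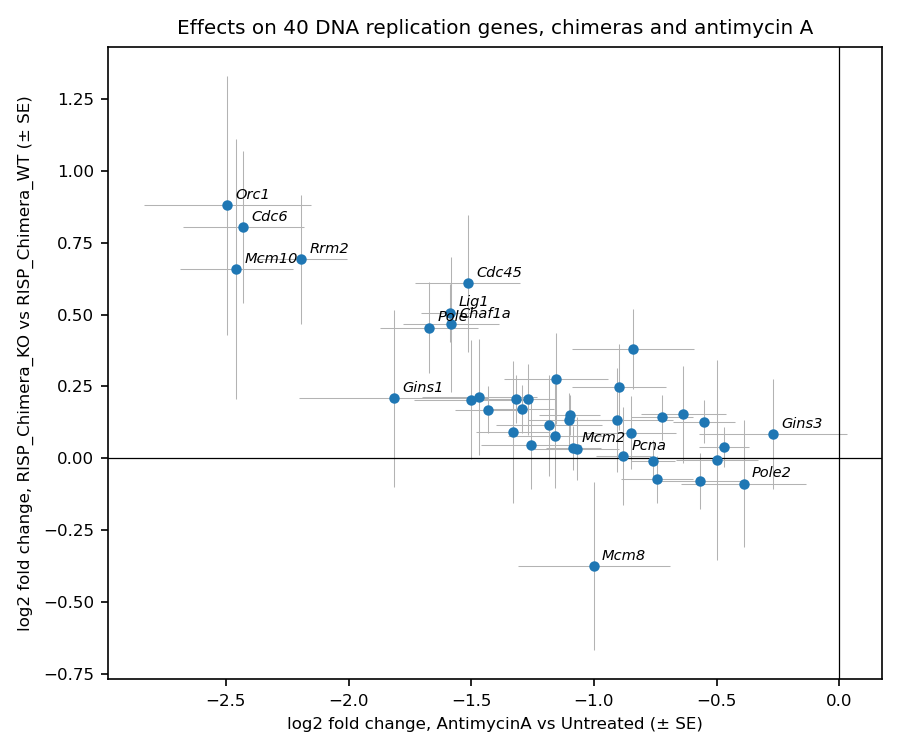
Log2 fold change of each of the 40 genes with AntimycinA against Untreated (x axis) and in RISP_Chimera_KO against RISP_Chimera_WT (y axis), with SE as bars. Orc1, Cdc6, Mcm10 and Rrm2 lie at the upper left, while Mcm2 and Pcna lie near 0 on the y axis and nearer to 0 on the x axis than these 4.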

How the data were processed

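The authors deposited 3 tables of raw read counts per Ensembl gene and library. Per the submitters' processing notes, bcl2fastq, TopHat (mm10), HTSeq and edgeR were used; versions, strand setting and filters are not given in the sources used here. Per the labels' protocols, RISP_WT and RISP_KO libraries were made with SMART-Seq v4 and Nextera XT, all others with NEBNext Ultra I after poly(A) selection. Of 43430 gene IDs, 42462 have a symbol in the name table. Another deposited table, whose 11 library columns match no sample of the labels, was left out.

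Tests used R 4.3.3 and edgeR 4.0.16 (filterByExpr by group, TMM, glmQLFTest), with DESeq2 1.42.0 as an alternative. Each knockout was tested within its table, the 6 inhibitor comparisons in 1 fit of 12 libraries and the difference of knockout effects in 1 fit of 16, 9 comparisons in all. The SE is the unshrunken log2 fold change divided by the square root of F. p-values are adjusted over all genes tested. Members and lists were chosen with earlier results of these data known. Named genes are all members by role. Values per library are given for Mcm2, Pcna, Rrm2 and, in each comparison with a control, the 4 members of smallest p among those called in a direction, and for Orc1, Uqcrfs1 and Gins1. Of other lists up to 3 called genes with the smallest p each way were named, and Timeless, Recql4, the AntimycinA value of Ccne1, the Piericidin value of Cdkn1a and the library values of Orc1 and Gins1 were added after their values were seen. One gene that this rule would name is not reported here. Levels compare libraries, not genes. No 2 libraries were duplicates (122 pairs). The scripts were tested on simulated counts. Other alternatives were size factors by RLE, testing all genes with counts, a 1 CPM minimum, a replicate block, only the 2 groups compared, and leaving out libraries. Fitting without RISP_Chimera_KO replicates 2 and 4 for the difference of effects and the correlation, and all settings for other lists, were added after seeing the data.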

Additional observations from a re-analysis of the deposited data

Results flagged for a closer look

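Among 164 groups of 4 libraries (40 genes and Uqcrfs1 in 4 groups), 9 had a library far from the other 3. Chance gives about 1 in 20, so the count is close to that share. In replicate 1 of RISP_KO, the highest of its group, Fen1 stood at 15.4 CPM (others 9.98 to 10.7), Lig1 at 163 CPM (others 103 to 107) and Pole2 at 33.6 CPM (others 22.0 to 23.6). In replicate 1 of RISP_WT, the lowest of its group, Gins2 stood at 12.8 CPM (others 16.5 to 17.1) and Gins4 at 63.0 CPM (others 69.1 to 69.6). In the chimeras, Chaf1b stood at 18.7 CPM in replicate 4 of RISP_Chimera_KO (others 12.3 to 13.2), Gins2 at 3.52 CPM in replicate 1 of RISP_Chimera_WT (others 2.43 to 2.50), Mcm4 at 103 CPM in replicate 1 of RISP_Chimera_KO (others 115 to 116) and Mcm5 at 76.6 CPM in its replicate 2 (others 52.8 to 55.6). The knockout effect on Mcm2 differed between chimeras and 3-week-old mice by a log2 fold change of -0.51 (adjusted p = 0.0371). This was 1 call among the 40 genes, where 3.27% of all genes tested were called, so the count is no more than that share. The call was lost in 11 of the 16 fits that left out 1 library.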

How the results depend on the processing

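No named value reversed its direction under the alternatives tried. With the replicate number as a block, 5 members were called in RISP_KO (10 without it), 0 for the difference of knockout effects, 1 in the chimeras, 34 with piericidin, 14 with 3-NPA and 38 with antimycin A. Deviations of same-numbered libraries correlated at -0.10 to 0.13 for the chimeras, 0.004 to 0.09 for the cultures and -0.04 to 0.03 for the other table. For libraries of different number the ranges were -0.12 to 0.17, -0.08 to 0.03 and -0.10 to 0.07. In the cultures the median was 0.04 for same-numbered pairs and -0.02 for the others. The labels give only a number, and whether libraries were paired cannot be told from these values. Antimycin A against piericidin gave 2 calls with DESeq2, 3 with no filter and 0 in a fit of only the 2 groups. The difference of knockout effects gave 2 with DESeq2 and 0 with no filter. Without replicates 2 and 4 of RISP_Chimera_KO it gave 0, as did the chimera comparison. The causes were not tested. In the remaining settings other than those that leave out a library, each count of called members among the 40 stayed within 1.5 times its value. Counts of other lists moved more, and the report gives them beside those lists. With the replicate block, 3 other replication genes and 3 G1/S genes were called in RISP_KO, and 2 other deoxynucleotide genes with 3-NPA.

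Leaving out 1 library gave 4 to 10 calls in RISP_KO, 0 to 0 in the chimeras, 26 to 34 with piericidin, 5 to 14 with 3-NPA and 34 to 38 with antimycin A. It gave 0 to 4 for antimycin A against piericidin, 12 to 24 for antimycin A against 3-NPA, 3 to 16 for piericidin against 3-NPA and 0 to 2 for the difference of knockout effects. In the 250 bases before the start alone, the E2F site was in 21.6% of the members' promoters and in 1.86% of all. The lower depth in vitro limits genes such as Gins1 and Orc1.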

Other observations

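The level of replication genes differed between the tables in the untreated wild-type cells themselves. The 40 genes summed to 3633 to 4104 CPM in RISP_WT, 1253 to 1359 CPM in RISP_Chimera_WT and 5735 to 5857 CPM in Untreated cells in vitro. Rrm2 read 10.9, 11.4, 8.48 and 6.70 CPM in RISP_Chimera_WT, where it read 235, 206, 252 and 215 CPM in RISP_WT, and the range for Rpa1 was 153 to 174 CPM against 252 to 316 CPM. RISP_WT differs from both other groups in library kit. RISP_Chimera_WT and Untreated cells share a kit but differ in age, chimeric host and culture. Such differences between the tables cannot be told apart, and no test was made across them.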
